A study of Mus musculus with 56 samples.

Results

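Transcripts of gastrocnemius, a calf muscle, were compared between mice at the same point of a fast but at opposite clock times: daytime-restricted feeding (DRF, food in the light phase) at ZT20 against nighttime-restricted feeding (NRF, food in the dark phase) at ZT8, where ZT counts hours from lights on. The members were chosen by regimen and time alone, and they are 8 of the 56 libraries, 4 in each group. All mice were C57BL/6J females, 9 weeks old, kept with 12 h of light a day and 12 h without, on normal chow, fed freely for 7 days and then held on their regimen for 7 days. If food was removed at the light switch, as the regimen names imply, both groups were 8 h into the fast. DRF ZT20 then lies in the dark phase, when mice are normally active, and NRF ZT8 in the light phase, when they rest. The 4 libraries of DRF ZT8 and the 4 of NRF ZT20 stand at the same clock times 8 h after the light switch that opens the feeding phase, and serve as the fed counterparts. The labels do not say that each library is a separate mouse, so p-values measure the spread between libraries. That spread was pooled over all 14 groups of the 56 libraries and is not that of the compared groups alone.

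In muscle, as in most tissues, a feedback loop of transcription factors keeps daily time. CLOCK or NPAS2 pairs with BMAL1 (Arntl) to activate the Per and Cry repressors, the REV-ERB receptors (Nr1d1, Nr1d2) and the activator Dbp, and REV-ERB in turn represses Arntl and Nfil3. Fasting acts on muscle through fatty acids and PPAR receptors, through low insulin and FoxO factors, and through glucocorticoids, which switch on fat oxidation, spare glucose and raise protein breakdown. A comparison that holds the hours of fasting equal and sets clock time and regimen apart sets the levels of these transcripts side by side.

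The 8 libraries held 29561384 to 33979905 recovered reads, and the skeletal muscle actin Acta1 was at 34783 to 63557 in all of them (CPM, reads per 1000000 of the library size used by the authors). DRF ZT20 replicate 1 stood apart from the other 7. Its log2 values correlated across genes with those of the other DRF ZT20 libraries at 0.953 to 0.966, while those 3 correlated among each other at up to 0.990. Its levels also fell off with gene length (rank correlation across genes -0.37, against -0.051 to -0.19 in the other 3 and 0.036 to 0.21 in NRF ZT8). The correlation with length was thus negative in every DRF ZT20 library and positive in every NRF ZT8 library. Leaving out replicate 1 does not remove that offset between the groups. Slow-fibre transcripts of DRF ZT20 replicate 1 summed to 4797 CPM against 111 to 1422 in the other 3 and 238 to 2870 in NRF ZT8. Among the fed counterparts, DRF ZT8 replicate 3 (4233) and NRF ZT20 replicate 2 (4066) came near that sum, with 296 to 3242 in the rest. Groups of genes with a call are therefore also counted, or their called genes followed, without DRF ZT20 replicate 1. A fit with the trend by gene length removed lost 12 of the 66 calls among genes named by rule. Its gene counts are in the closing section. What lies behind the length trend, and the part of fibre type in the results, were not tested. In bulk tissue, fewer cells of a type and less RNA per cell cannot be told apart.

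Of 12024 genes tested, 605 were higher and 806 lower in DRF ZT20 than in NRF ZT8 (limma, Benjamini-Hochberg adjusted p under 0.05). That is a background of 11.7% called in either direction, 5.03% higher and 6.7% lower. Most of these differences were small. The median size was 0.41 log2 units among genes that were higher and 0.43 among genes that were lower, and only 61 and 20 of them reached 2-fold. At the other end, 7850 genes (65.3%) had a 95% interval of the difference within 0.5 log2 units of 0. The groups did not overlap for 1495 genes (12.4%), 658 higher (5.47%) and 837 lower (6.96%). The counts depended on DRF ZT20 replicate 1: without it 224 genes were higher (1.86%) and 245 lower (2.04%), 3.9% in all. They also depended on NRF ZT8 replicate 2, without which 331 were higher and 414 lower. Fitted on the 8 libraries alone, 74 were higher and 28 lower. That fit has few degrees of freedom and takes the spread from these groups only, and why its counts were smaller was not tested. Scaling by total count moved the median of all genes by -0.13 and gave 223 higher and 2236 lower. Levels below are in CPM. Differences were taken after 1 was added to each CPM and the log2 formed, so those of low genes are understated. A CPM is not per length, so levels are compared only within a gene. Of the 66 genes named by rule that passed the test, 35 passed with each of the 8 libraries left out in turn.

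Most core clock genes differed, Dbp and Ciart with the 2 largest negative differences of all genes tested. Of 19 core clock and output factors, all of them tested, 4 were higher and 11 lower in DRF ZT20, and 4 passed in neither direction. The median difference was -0.88 log2 units, against -0.00 over all genes. Without DRF ZT20 replicate 1 the counts were 4 and 10. Of the 15 genes called, 14 passed with each of the 8 libraries left out, Tef being the exception.

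Promoter windows from RefSeq (GRCm38.p6, 250 bases before to 50 after a start site) were searched on both strands for the letters through which clock factors are known to act. Of the 19 genes, 16 have a window. Only the stretches printed below are shown. They were picked after the matches were seen, because they carry the letters of both arms of the loop. The first pair holds TAGGTCA, an element of REV-ERB and ROR receptors, in the 2 core genes with the largest positive differences: Arntl (one of its windows, 30 bases around a match that starts 31 bases after the start site, chr7:113207530-113207559, plus strand) and Nfil3 (chr13:52981040-52981289, minus strand, as its reverse complement TGACCTA, starting 12 bases before the start site). The next pair holds the E-box CACGTG of CLOCK and BMAL1 in Ciart (chr3:95882229-95882478, minus strand, 3 matches starting 116, 58 and 44 bases before) and the D-box TTATGTAA of DBP and NFIL3 in Per3 (chr4:151044666-151044915, minus strand, 205 and 158 bases before). Coq10b, which is no clock gene, holds a D-box, as its reverse complement TTACATAA, and an E-box (chr1:55052520-55052769, plus strand, 162 and 78 bases before). Capitals mark the matches, and the last 4 sequences are the 250 bases before the start site.
Arntl: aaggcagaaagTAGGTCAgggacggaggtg
Nfil3: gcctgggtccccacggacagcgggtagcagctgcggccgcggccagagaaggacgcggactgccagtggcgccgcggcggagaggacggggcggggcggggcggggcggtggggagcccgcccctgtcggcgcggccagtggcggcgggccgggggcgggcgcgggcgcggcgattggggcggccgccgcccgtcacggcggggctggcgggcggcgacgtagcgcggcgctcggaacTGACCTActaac
Ciart: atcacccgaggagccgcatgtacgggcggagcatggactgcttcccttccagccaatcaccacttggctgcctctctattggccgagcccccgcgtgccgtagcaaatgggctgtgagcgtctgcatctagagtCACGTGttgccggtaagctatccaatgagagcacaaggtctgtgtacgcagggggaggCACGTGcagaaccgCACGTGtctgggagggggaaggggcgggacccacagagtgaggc
Per3: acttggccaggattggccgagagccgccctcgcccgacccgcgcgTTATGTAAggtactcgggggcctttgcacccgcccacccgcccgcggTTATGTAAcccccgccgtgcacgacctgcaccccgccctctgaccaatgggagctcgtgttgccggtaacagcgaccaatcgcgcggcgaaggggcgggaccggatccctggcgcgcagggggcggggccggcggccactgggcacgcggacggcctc
Coq10b: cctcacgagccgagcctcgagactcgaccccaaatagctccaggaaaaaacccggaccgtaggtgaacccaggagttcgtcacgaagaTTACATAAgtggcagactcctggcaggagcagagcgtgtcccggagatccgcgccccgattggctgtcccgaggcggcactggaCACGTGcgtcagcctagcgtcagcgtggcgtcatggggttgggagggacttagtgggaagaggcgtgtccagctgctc
CACGTG is held by 7.15% of all 32851 windows and by those of 5 core genes (Bhlhe41, Ciart, Cry1, Per1, Tef). TTATGTAA is held by 0.938% of windows and by 1 core gene, Per3, TAGGTCA by 2.61% and by 2 (Arntl, Nfil3), and the cyclic AMP element TGACGTCA by 1.79% and by 1 (Hlf). The shorter AGGTCA, which lies within TAGGTCA, is held by 16.3% and by 5 (Arntl, Clock, Nfil3, Nr1d2, Per1). The percentages count windows, while a gene is counted if any of its windows holds the letters, so shares and gene counts are not in the same unit. A match describes letters in a window and not a bound site.

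On the activator side, Arntl (gene 11865, chromosome 7, 113178471 to 113314126, GRCm38), which encodes BMAL1, stood at 50.9, 52.9, 57.6 and 57.7 CPM in DRF ZT20 and at 9.81, 8.81, 18.05 and 12.1 in NRF ZT8. Every DRF ZT20 library was above every NRF ZT8 library, and the difference was 2.13 ± 0.21 log2 units (SE, adjusted p = 5.6e-10, n = 4 per group). Npas2, the partner that can replace CLOCK, stood at 2.42 to 3.05 CPM against 0.227 to 1.07 (1.26 ± 0.16, adjusted p = 2.2e-07). Clock itself showed no such difference (0.02 ± 0.19, 95% interval -0.35 to 0.39). Its level in DRF ZT20 was 37.0, 40.02 and 37.8 CPM in replicates 2 to 4 and 19.5 in replicate 1, against 28.4 to 35.7 in NRF ZT8.

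The D-box repressor Nfil3 (gene 18030, chromosome 13, 52967209 to 52982878) was at 75.2, 57.8, 59.3 and 76.0 CPM in DRF ZT20 and 11.5, 9.98, 12.5 and 13.5 in NRF ZT8, groups far apart (2.40 ± 0.25, adjusted p = 1.7e-09). Its activator counterpart Dbp (gene 13170, chromosome 7, 45705100 to 45710203) went the opposite way, with 16.3, 13.6, 9.24 and 9.92 CPM against 218, 216, 111 and 173. At -3.75 ± 0.32 log2 units (adjusted p = 5.8e-12) this was the largest difference among the 12024 genes, in a gene whose recovered counts hold decimals, the mark of reads shared with other transcripts. The related PAR factors Hlf (-0.93 ± 0.18, adjusted p = 0.00055) and Tef (-0.36 ± 0.13, adjusted p = 0.048) were also lower. Hlf libraries did not overlap, at 10.2 to 14.5 CPM against 16.7 to 32.9. Tef libraries did, and its call was lost without DRF ZT20 replicate 1, 3 or 4 or NRF ZT8 replicate 1, 2 or 4 (adjusted p = 0.061 to 0.19).

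Among the repressors, Ciart (gene 229599, chromosome 3, 95878500 to 95882257), which encodes CHRONO, an inhibitor of BMAL1, was close to 1 CPM in DRF ZT20 (0.782, 0.706, 0.557 and 1.21 CPM) and at 17.2, 18.4, 8.76 and 14.7 in NRF ZT8 (-3.09 ± 0.24, adjusted p = 1.8e-12). The 3 Per genes were all lower in value. Per3 was at 20.4 to 30.1 CPM against 59.4 to 110 (-1.78 ± 0.27, adjusted p = 9.5e-06). Per1, which also responds to acute signals, spread widely within DRF ZT20, at 28.0, 8.54, 15.9 and 44.7 CPM against 45.0, 63.5, 75.3 and 83.9 (-1.62 ± 0.34, adjusted p = 0.0013), and its groups stayed apart by a narrow gap. Per2 overlapped between the groups and did not pass (-0.88 ± 0.34, adjusted p = 0.079). The Cry repressors moved in opposite directions. Cry1 was at 20.5 to 29.4 CPM against 10.8 to 16.4 (0.89 ± 0.13, adjusted p = 1.1e-05) and Cry2 at 32.5 to 38.8 against 40.1 to 64.2 (-0.56 ± 0.12, adjusted p = 0.0018).

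Of the REV-ERB receptors, Nr1d1 (REV-ERB alpha, decimal counts) stood at 40.3, 142, 99.4 and 98.8 CPM in DRF ZT20 and 236, 206, 263 and 309 in NRF ZT8 (-1.52 ± 0.27, adjusted p = 0.00016). Nr1d2 (REV-ERB beta) was at 54.2 to 92.7 against 161 to 225 (-1.30 ± 0.14, adjusted p = 7.5e-09). Rora, a receptor that opposes them, did not pass (-0.47 ± 0.23, adjusted p = 0.16). Its value rests on DRF ZT20 replicate 1 (47.4 CPM against 116 to 124 in the other 3), and was -0.14 without it. The E-box competitors Bhlhe40 (DEC1) and Bhlhe41 (DEC2) were both lower, by -1.02 ± 0.20 (adjusted p = 0.00054) and -1.16 ± 0.26 (0.0027), and neither overlapped between groups.

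**Figure D1:**
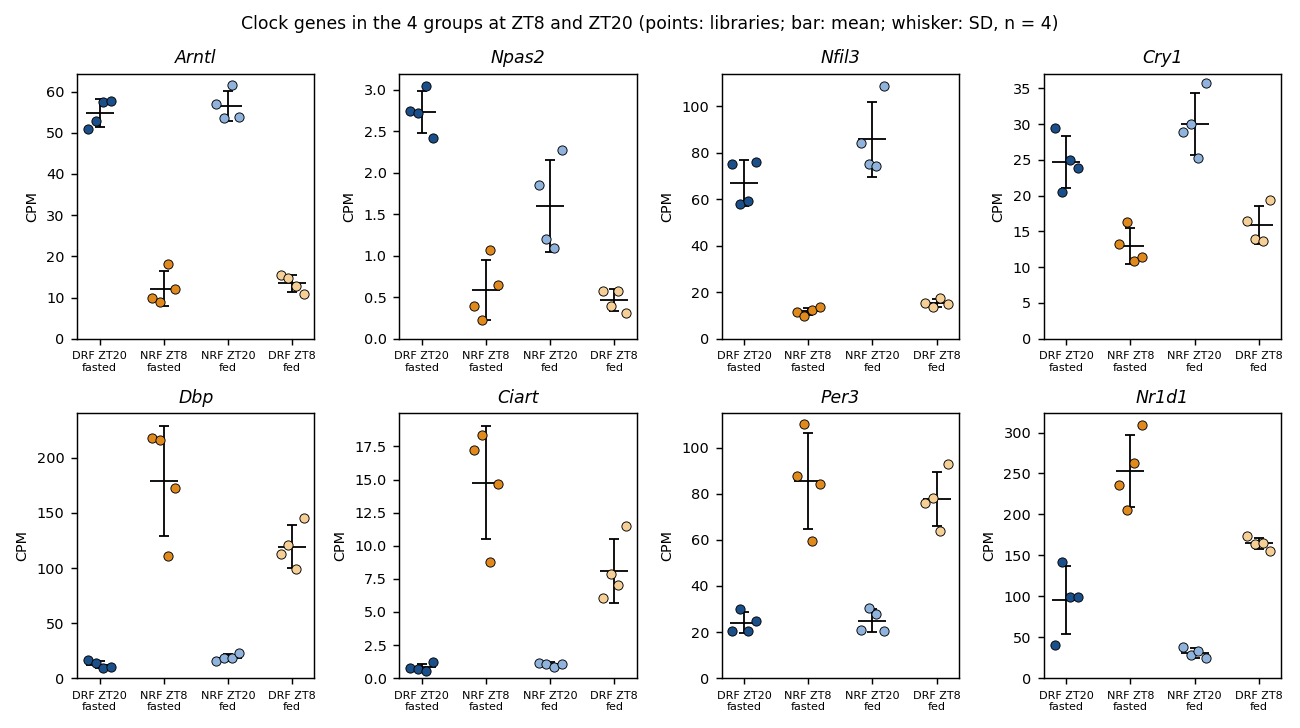
Levels of 8 clock genes in CPM (vertical axis, linear, from 0) in the 4 libraries of each group at ZT8 and ZT20, where "fasted" and "fed" follow from regimen and time, points are libraries, bars are means and whiskers SD. In each panel the DRF ZT20 points lie apart from the NRF ZT8 points; Nr1d1 in DRF ZT20 (40.3 to 142 CPM) also lies above NRF ZT20 (mean 31.1).

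The difference between the 2 fasted groups can be written as the sum of a clock time contrast (ZT20 minus ZT8, averaged over regimens) and a regimen contrast (DRF minus NRF, averaged over both times), since the feeding state is the same on both sides. The contrasts share libraries, so each is given on its own. For every gene, the clock time contrast also tests whether fasted minus fed was unequal in DRF and NRF. Clock time and such an unequal feeding response cannot be told apart by it. The clock time contrast was past the test for 2070 genes (17.2%), 987 higher (8.21%) and 1083 lower (9.01%), and for 17 of the 19 core clock genes, Clock and Rora being the 2 that were not. Without DRF ZT20 replicate 1 it was past the test for 10.4% of genes, 633 higher (5.26%) and 621 lower (5.16%), and without NRF ZT20 replicate 4 for 527 higher and 563 lower. The regimen contrast was past it for 1 gene (0.00832%), although 1336 genes had an unadjusted p under 0.05 (limma with voom weights called 0, with 1339 at that p). That contrast also tests whether ZT20 minus ZT8 was unequal in the fasted and fed groups, and 0 of the 19 core clock genes passed it in limma. The feeding state contrast is the 2 fasted groups minus the 2 fed groups, averaged over both times. For every gene it also tests whether ZT20 minus ZT8 was unequal in DRF and NRF. Feeding state and a rhythm that differs between regimens therefore cannot be told apart by it. It was past the test for 1 of the 19, Nr1d1, at 1.04 (adjusted p = 0.001), higher in the fasted groups. Nr1d1 means at ZT20 and ZT8 were 95.1 and 165 CPM in DRF, and 31.1 and 253 in NRF.

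The 1 gene was P2ry6 (gene 233571, chromosome 7, 100937630 to 100975498), a receptor for UDP, which falls outside the rule for named genes and was picked after its value was seen. It stood at 3.01, 3.95, 4.42 and 3.90 CPM in DRF ZT20 and 2.27, 1.66, 2.01 and 1.902 in NRF ZT8 (0.70 ± 0.14, adjusted p = 0.00077). DRF ZT8 held 2.64 to 3.87 CPM and NRF ZT20 1.75 to 2.70, so that DRF was higher at both times (regimen contrast 0.52 ± 0.10, adjusted p = 0.039). Its level is low, and the regimen call was lost in several alternative fits given in the closing section.

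The fed pair at the same 2 clock times, NRF ZT20 against DRF ZT8, shares no library with the fasted pair. It gave 485 genes (4.03%), 310 higher (2.58%) and 175 lower (1.46%) at ZT20. Called in both pairs in the same direction were 196 genes, 13.9% of the calls of the fasted pair and 40.4% of those of the fed pair. Only 1 gene was called in opposite directions, Fcf1, a ribosome assembly factor, at 0.25 in the fasted and -0.31 in the fed pair, named after its value was seen (adjusted p = 0.036 and 0.019, and 0.096 in the fasted pair without DRF ZT20 replicate 1). Of the calls of the fasted pair, 82.8% had the same sign in the fed pair, against 66.7% of all genes. Across the 12024 genes, which are not independent, the 2 differences correlated at 0.54 (Pearson) and 0.45 (Spearman). Both pairs set DRF against NRF, with the regimens swapped. Arntl differed by 2.004 log2 units in the fed pair, Nfil3 by 2.39, Dbp by -2.61 and Ciart by -2.12 (adjusted p = 1.1e-08, 1.1e-08, 2.2e-07 and 6.2e-08), and 18 of 19 core clock genes had the same sign in both pairs.

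**Figure D2:**
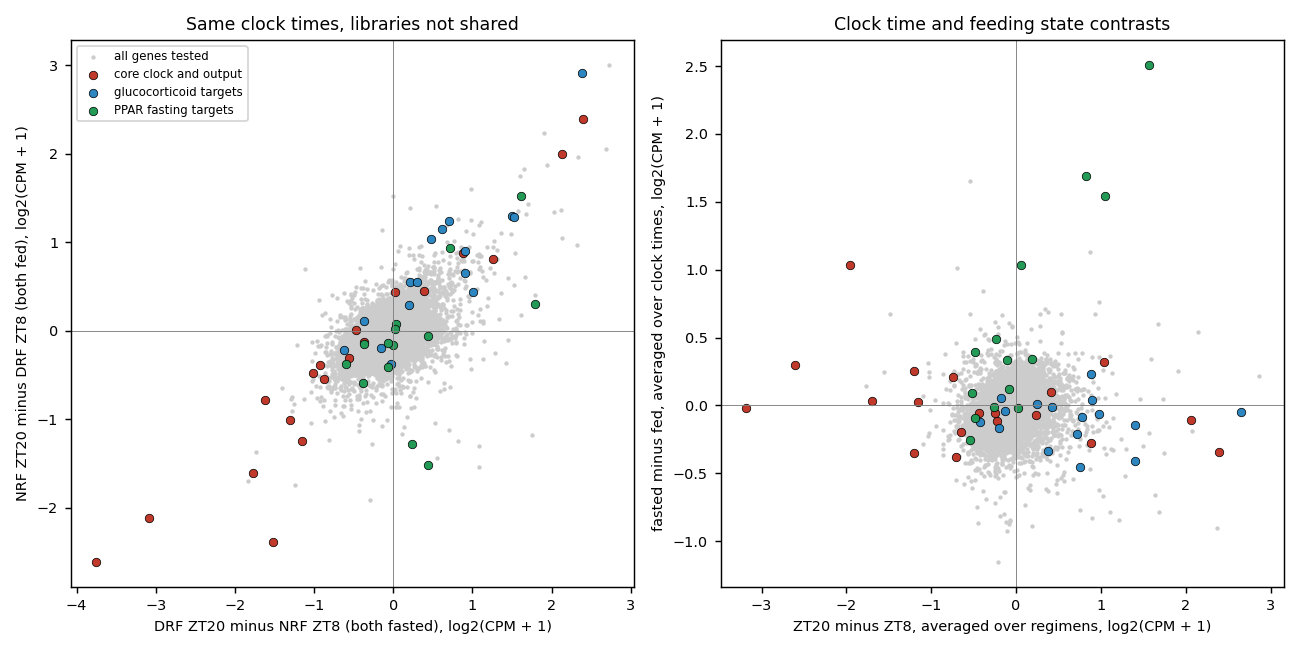
Left: difference in the fasted pair (horizontal axis) against the fed pair (vertical axis) for all 12024 genes, on the log2(CPM + 1) scale, with core clock, glucocorticoid and PPAR fasting genes coloured. Right: the clock time contrast (horizontal axis) against the feeding state contrast (vertical axis); core clock genes spread along the horizontal axis, and 4 PPAR fasting genes (Pdk4, Ucp3, Angptl4, Cpt1a) lie above 1 on the vertical axis.

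Of 14 transcripts of fatty acid use in fasting, targets of PPAR receptors, 1 was higher and 0 lower between the 2 fasted groups (limma), near the 11.7% called over all genes. The median was 0.03 log2 units, and without DRF ZT20 replicate 1 the counts were again 1 and 0 and the median 0.10. The feeding state contrast was past the test for 220 genes in all (1.83%), 72 higher (0.599%) and 148 lower (1.23%) in the fasted state, and for 4 of these 14, all higher in the fasted state. The count of 220 rests on single libraries, with 43 higher and 69 lower without DRF ZT8 replicate 4, 41 and 82 without NRF ZT20 replicate 3, and 101 and 273 without NRF ZT20 replicate 4. Of the 220 genes, 152 had an interval of DRF ZT20 minus NRF ZT8 within 0.5 log2 units of 0 (69.1%), near the 65.3% of all genes.

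Cpt1a, which admits long-chain fatty acids to mitochondria, was nearly equal 8 h into the fast, at 13.4, 24.3, 14.6 and 17.4 CPM in DRF ZT20 and 14.5, 16.1, 17.7 and 18.1 in NRF ZT8. Its difference was 0.03 ± 0.22 (95% interval -0.41 to 0.47), while fed means were 7.72 ± 2.38 (SD, n = 4) at ZT8 and 8.01 ± 1.49 at ZT20. The feeding state contrast was 1.03 (adjusted p = 4.9e-05). All 8 fasted libraries stood above all 8 fed libraries in this gene.

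Pdk4 (gene 27273, chromosome 6, 5483351 to 5496278), the kinase that shuts pyruvate dehydrogenase, stood at 730, 1404, 759 and 1565 CPM in DRF ZT20 and at 105, 317, 634 and 659 in NRF ZT8. The groups did not overlap, but the spread within them was large and the difference did not pass (1.61 ± 0.76, 95% interval 0.09 to 3.13, adjusted p = 0.15). Ucp3, a mitochondrial carrier, likewise did not pass (0.71 ± 0.38, 95% interval -0.05 to 1.47, adjusted p = 0.19), with 116, 291, 134 and 169 CPM against 75.6, 125, 98.0 and 112. Both passed the feeding state contrast, Pdk4 at 2.51 (adjusted p = 0.0061) and Ucp3 at 1.69 (0.00014). Both also passed the clock time contrast, at 1.57 (0.037) and 0.82 (0.029).

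Angptl4, which inhibits lipoprotein lipase, was the 1 PPAR target called. It stood at 5.96, 31.5, 24.1 and 18.2 CPM in DRF ZT20 and at 1.67, 5.10, 6.81 and 4.94 in NRF ZT8. Replicates 2 to 4 of DRF ZT20 were well above NRF ZT8, and replicate 1 lay within its range (1.79 ± 0.56, adjusted p = 0.032). The call was lost without DRF ZT20 replicate 2, 3 or 4 or NRF ZT8 replicate 1, 2 or 4 (adjusted p = 0.050 to 0.10). The enzymes that burn the fat did not differ past the test. Of 24 genes of fatty acid uptake and oxidation 0 passed, with differences from -0.49 to 0.04 and 0 at an unadjusted p under 0.05, and of 25 oxidative phosphorylation genes 0 passed, from -0.27 to 0.31 and 2 at that p (limma). With voom weights 0 passed in both lists. Lpl, which releases fatty acids at the vessel wall, was at 173 to 594 CPM against 203 to 1014 (-0.68 ± 0.55, adjusted p = 0.42).

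By rule, 8 genes with the largest feeding state contrast and a narrow interval around 0 in the fasted pair were named as most alike. They are Cpt1a, Rreb1, Lipe, Cited2, Dnaja1, Hhex, Wee1 and Tiam2. Being chosen for likeness, they describe it and do not test it. Rreb1, a zinc finger repressor, stood at 42.8 to 46.3 CPM in DRF ZT20 and 37.8 to 43.7 in NRF ZT8, while the fed means were 59.99 ± 7.22 and 70.5 ± 8.69. Cited2, a regulator of HIF-1 activity, was at 57.7 to 76.5 and 65.1 to 72.4 CPM, against fed means of 46.7 ± 1.95 and 47.8 ± 5.95. Lipe, hormone-sensitive lipase, overlapped fully at 28.4 to 51.8 and 22.4 to 46.8 CPM.

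Of 22 FoxO and atrophy genes tested, 2 were higher and 2 lower in DRF ZT20, against 5.03% and 6.7% of all genes. Without DRF ZT20 replicate 1 the counts were 3 and 0, against 1.86% and 2.04% of all genes. The median was 0.19 (0.11 without that library). The 2 that were higher are the muscle ubiquitin ligases that mark protein for breakdown. Fbxo32 (atrogin-1, gene 67731, chromosome 15, 58175879 to 58214892) stood at 547, 1035, 942 and 1259 CPM in DRF ZT20 and at 151, 216, 266 and 208 in NRF ZT8. The groups were far apart (2.13 ± 0.30, adjusted p = 3.3e-06). Trim63 (MuRF1, gene 433766, chromosome 4, 134315120 to 134329629) stood at 353, 382, 396 and 698 CPM against 199, 161, 182 and 193 (1.26 ± 0.21, adjusted p = 6.5e-05). In the fed groups both were also higher at ZT20. Fbxo32 had means of 528 ± 203 CPM in NRF ZT20 and 241 ± 55.3 in DRF ZT8 (fed pair 1.05, adjusted p = 0.034), and Trim63 had 312 ± 71.3 and 158 ± 15.7 (0.95, adjusted p = 0.0038). Neither passed the feeding state contrast (adjusted p = 0.52 and 0.23).

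The 2 atrophy genes called lower were the ubiquitin ligase Fbxo30 (-0.57 ± 0.14, adjusted p = 0.0078) and the factor Foxo6 (-0.66 ± 0.21, adjusted p = 0.036). Fbxo30 was lost without DRF ZT20 replicate 1 (adjusted p = 0.10), and Foxo6 without DRF ZT20 replicate 1 or 4 or NRF ZT8 replicate 1, 2 or 4 (0.075 to 0.13). Foxo1 (0.35 ± 0.24, adjusted p = 0.33), Klf15 (0.30 ± 0.14, 0.13) and Txnip (0.26 ± 0.27, 0.55) did not pass, and their groups overlapped. In the clock time contrast 8 of the 22 were higher and 2 lower, against 8.21% and 9.01% of all genes.

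Several glucocorticoid targets were higher in DRF ZT20. Of 16 tested, 5 were higher and 0 lower, against 5.03% and 6.7% of all genes. The counts were 4 and 0 without DRF ZT20 replicate 1, and 4 and 2 when scaled by total count. The median was 0.55 log2 units against -0.00 over all genes. In the clock time contrast 10 of the 16 were higher and 0 lower, against 8.21% and 9.01% of all genes. Fkbp5 (gene 14229, chromosome 17, 28398753 to 28486149), a receptor co-chaperone, stood at 133, 80.8, 145 and 219 CPM in DRF ZT20 and at 21.2, 29.5, 35.6 and 17.9 in NRF ZT8. The groups were far apart (2.39 ± 0.39, adjusted p = 4.1e-05), and the fed pair differed by 2.91 (adjusted p = 1.6e-06). Zbtb16 (PLZF) was at 139, 123, 96.1 and 157 CPM against 34.8, 42.7, 63.5 and 40.5 (1.499 ± 0.25, adjusted p = 6.7e-05).

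The factor Cebpb was at 33.4 to 54.0 CPM against 15.4 to 28.4 (1.00 ± 0.23, adjusted p = 0.0039). The metallothionein Mt2 was higher by 1.52 ± 0.41 (adjusted p = 0.014), with DRF ZT20 replicate 2 at 2.54 CPM inside the NRF ZT8 range of 2.36 to 4.43, and was lost without DRF ZT20 replicate 4 (0.080). The fifth, outside the rule and named for the count, was glutamine synthetase, Glul (0.70 ± 0.22, adjusted p = 0.029), which did not pass without DRF ZT20 replicate 1 (0.19). The hormone itself was not measured.

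**Figure D3:**
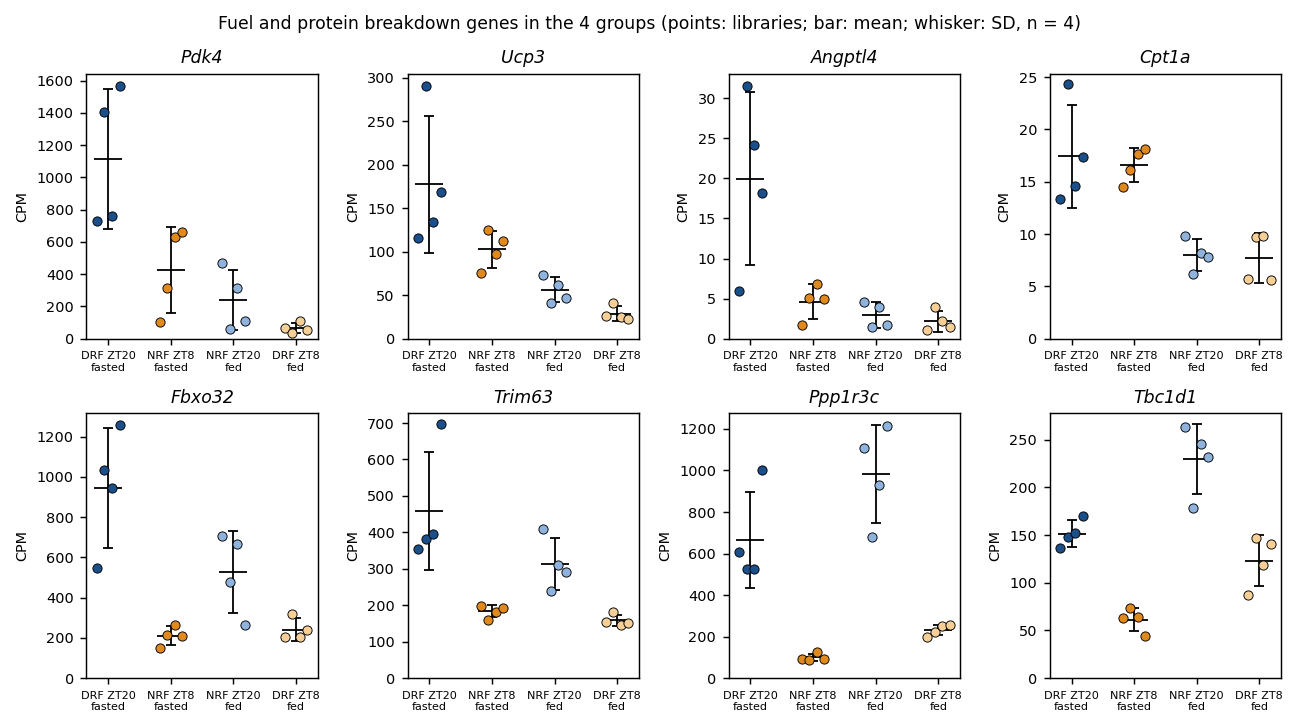
Levels of 8 genes of fuel use and protein breakdown in CPM (vertical axis, linear, from 0) in the 4 libraries of each group, with points for libraries, bars for means and whiskers for SD. Cpt1a overlaps between the fasted groups and lies lower in both fed groups, while the means of Fbxo32, Trim63 and Ppp1r3c are higher in both ZT20 groups than in NRF ZT8, with 1 NRF ZT20 point of Fbxo32 (262 CPM) inside the NRF ZT8 range.

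In glucose and glycogen handling the share of genes called was near the 11.7% over all genes. Ppp1r3c (gene 53412, chromosome 19, 36731731 to 36736604), which brings protein phosphatase 1 to glycogen and favours its synthesis, stood at 607, 526, 525 and 1004 CPM in DRF ZT20 and at 94.1, 85.2, 127 and 92.0 in NRF ZT8. Every DRF ZT20 library was far above every NRF ZT8 library (2.69 ± 0.29, adjusted p = 4.2e-09). It was higher again in fed NRF ZT20 (984 ± 234) and was 232 ± 25.9 in fed DRF ZT8, and its feeding state contrast was -0.90 (adjusted p = 0.0095), lower in the fasted state. Tbc1d1 (gene 57915, chromosome 5, 64156305 to 64351486), a brake on glucose transporter movement that insulin and contraction release, was at 136, 148, 152 and 170 CPM against 63.2, 73.4, 64.0 and 44.5 (1.31 ± 0.19, adjusted p = 3.9e-06). Its feeding state contrast was also negative (-0.79, adjusted p = 0.00032).

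Of 22 genes of glucose uptake and glycolysis, 2 were higher and 1 lower (1 and 1 without DRF ZT20 replicate 1), with a median of 0.16 (0.11 without it). The second that was higher was the glycolytic mutase Pgam2 (0.54 ± 0.15, adjusted p = 0.014), lost without DRF ZT20 replicate 1 (0.051) or NRF ZT8 replicate 2 (0.063). The 1 that was lower was Tbc1d4, the paralog of Tbc1d1 (-0.77 ± 0.24, adjusted p = 0.033), with overlapping groups and a call lost without DRF ZT20 replicate 1, 3 or 4 or NRF ZT8 replicate 2, 3 or 4 (0.058 to 0.115). Hexokinase 2 (Hk2) at -0.35 ± 0.14 (0.097) and the transporter GLUT4 (Slc2a4) at 0.15 ± 0.10 (0.31) did not pass. Without DRF ZT20 replicate 1, Hk2 was at -0.50 (0.034).

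Of 15 glycogen genes, 1 was higher and 1 lower (1 and 0 without DRF ZT20 replicate 1). The lower one was Ppp1r3a, another subunit that targets phosphatase 1 to glycogen (-0.83 ± 0.28, adjusted p = 0.043). DRF ZT20 replicate 1 was at 89.1 CPM against 312 to 347 in the other 3 and 356 to 538 in NRF ZT8, and without it the difference was -0.37 (0.41). The call was also lost without NRF ZT8 replicate 1, 2 or 3 (0.053 to 0.13). Pdp1, the phosphatase that opposes Pdk4 on pyruvate dehydrogenase, was lower at 35.9 to 54.5 CPM against 103 to 134 (-1.29 ± 0.19, adjusted p = 6.5e-06), with groups far apart. Lpin1, a phosphatidate phosphatase, was the 1 of 19 genes of fatty acid and triglyceride synthesis called higher (0.52 ± 0.16, adjusted p = 0.024), against 5.03% of all genes. Its call was lost without DRF ZT20 replicate 1 or 4 or NRF ZT8 replicate 1 or 2 (0.056 to 0.083).

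Among the remaining genes with the largest differences, 6 of those that were higher passed with each library left out. Odf3l2 (gene 382384), related to a sperm tail protein, stood at 16.2, 8.96, 25.1 and 57.7 CPM against 2.13, 6.21, 3.11 and 0.491 (2.72 ± 0.63, adjusted p = 0.0042). It had the largest positive difference of all genes and a wide spread. Pnpla3, a lipase and acyltransferase of lipid droplets, was at 32.7, 41.4, 49.7 and 66.1 CPM against 7.11, 7.77, 13.1 and 6.90 (2.32 ± 0.27, adjusted p = 4e-08). The transporter Slc16a9 was at 15.4 to 25.6 CPM against 2.57 to 5.84 (2.12 ± 0.21, adjusted p = 5.6e-10). The repeat protein Lrrc30 was at 139 to 300 CPM against 43.9 to 59.1 (2.03 ± 0.19, adjusted p = 9.6e-11). The kinase Pim1 was at 19.0 to 41.9 CPM against 7.05 to 8.76 (1.95 ± 0.23, adjusted p = 5.7e-08). Prima1, which anchors acetylcholinesterase to membranes, was at 39.8 to 66.6 CPM against 9.74 to 16.2 (1.91 ± 0.28, adjusted p = 4.6e-06). None of these 6 overlapped between the groups. The stress factor Atf3 (1.79 ± 0.46, adjusted p = 0.0090) was the 1 of 24 immediate early and contraction genes called, against 11.7% of all genes. Its call was lost without DRF ZT20 replicate 1 (0.064).

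Of the genes that were lower, Coq10b (gene 67876, chromosome 1, 55052770 to 55072702), which binds coenzyme Q, stood at 5.84, 5.22, 4.98 and 6.11 CPM in DRF ZT20 and at 23.7, 26.4, 16.9 and 23.2 in NRF ZT8 (-1.84 ± 0.22, adjusted p = 6.1e-08). The libraries of each group lay close together, and the fed pair differed by -1.70 (adjusted p = 7.9e-07). Its promoter stretch is the last one printed above. The deacetylase Hdac9 was at 3.67 to 5.34 CPM against 10.8 to 12.7 (-1.28 ± 0.25, adjusted p = 0.00065). Inpp4b, a lipid phosphatase (-1.28 ± 0.40, adjusted p = 0.028), was lost without DRF ZT20 replicate 1 or 2 or NRF ZT8 replicate 3 or 4 (0.051 to 0.10), and the zinc finger gene Zfp966, with decimal counts (-1.26 ± 0.32, adjusted p = 0.0089), without DRF ZT20 replicate 1 (0.065).

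The muscle-determining factors Myod1 and Myf6 were higher. Of 8 tested satellite cell and myogenic genes, 2 were higher and 0 lower, against 5.03% and 6.7% of all genes. The counts were the same without DRF ZT20 replicate 1, against 1.86% and 2.04% of all genes. Myod1 (gene 17927, chromosome 7, 46376474 to 46379092), a master factor of muscle genes and known clock target, stood at 63.5, 38.3, 33.3 and 45.9 CPM in DRF ZT20 and at 11.6, 15.1, 12.7 and 12.7 in NRF ZT8 (1.68 ± 0.20, adjusted p = 5.2e-08). Myf6 (MRF4) was at 97.4 to 120 CPM against 57.8 to 60.9 (0.81 ± 0.16, adjusted p = 0.00048). Pax7, the marker of satellite cells, did not pass (-0.26, adjusted p = 0.23).

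On insulin and growth signalling, 2 of 17 genes were lower and 0 higher (1 and 1 without DRF ZT20 replicate 1), near the 11.7% called over all genes. The receptor Igf1r was at 16.2, 24.03, 20.7 and 20.2 CPM in DRF ZT20 and 25.7, 28.5, 34.0 and 39.0 in NRF ZT8 (-0.62 ± 0.11, adjusted p = 9e-05). The insulin receptor Insr was at 56.2, 77.4, 78.7 and 80.9 against 84.0, 97.7, 106 and 103 (-0.42 ± 0.11, adjusted p = 0.011), and did not pass without DRF ZT20 replicate 1 (0.12). Of 21 cholesterol synthesis genes 2 were lower (Hmgcs1 and Sc5d), of 17 heat shock genes 2 (Hspa4 and Hspd1) and of 14 genes of branched-chain amino acid breakdown 2 (Dld and Acadsb), and of 15 endoplasmic reticulum stress genes 2 were higher (Manf and Sdf2l1). The share called in each of these lists is also near 11.7%. All 8 genes lost the call without DRF ZT20 replicate 1, and their differences were between -0.44 and 0.42. The calls of Dld, Acadsb, Hspd1, Hmgcs1, Manf and Sc5d were also lost without other libraries, for Dld each of NRF ZT8 replicates 1 to 4, for Hspd1 DRF ZT20 replicate 4 and NRF ZT8 replicates 2 to 4, for Hmgcs1 NRF ZT8 replicate 3, for Manf NRF ZT8 replicates 2 and 3, and for Acadsb and Sc5d NRF ZT8 replicate 2. Of 20 ribosome assembly genes 0 passed in limma or with voom weights, and 5 had an unadjusted p under 0.05.

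**Figure D4:**
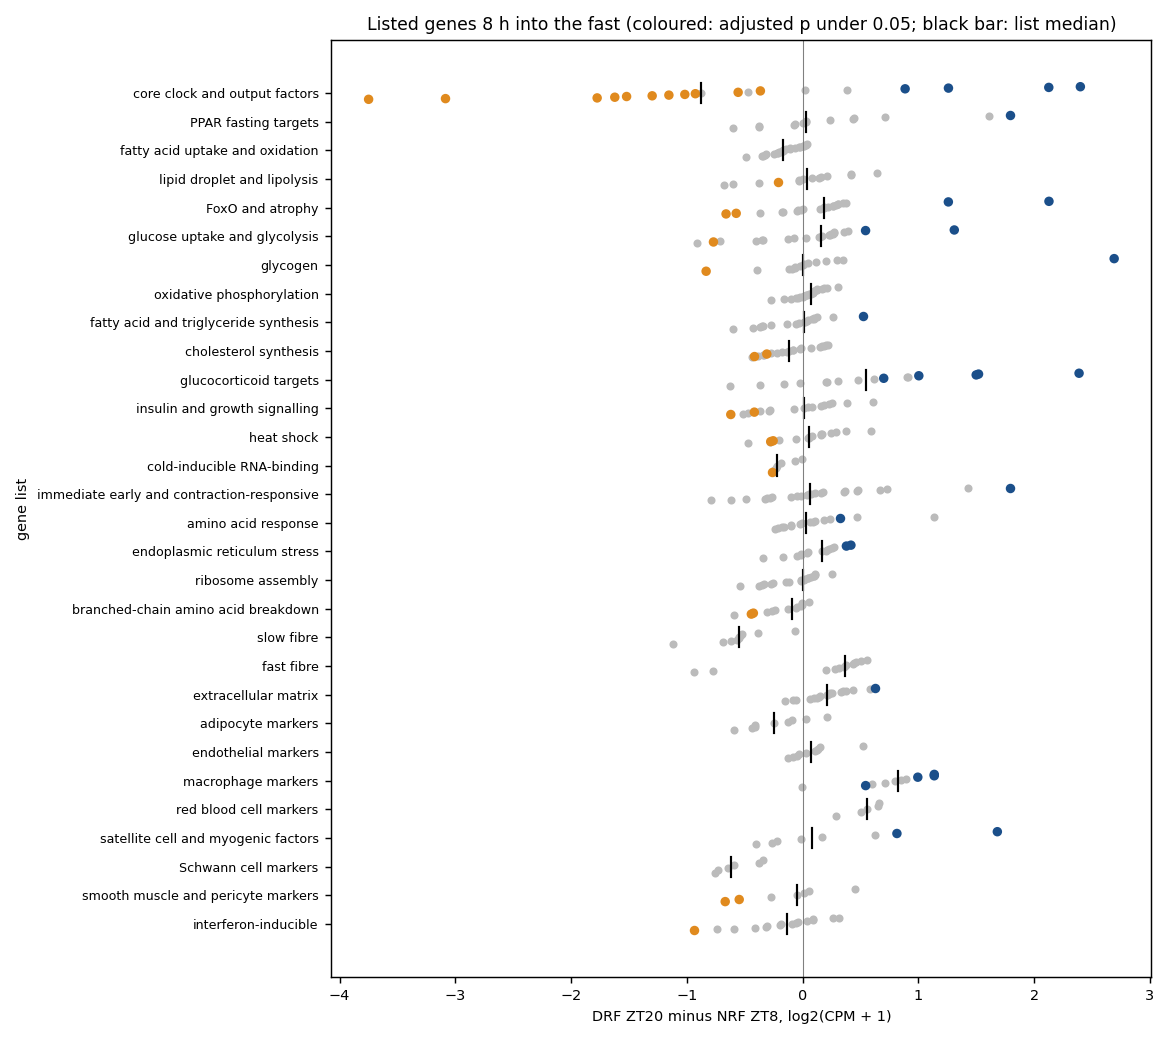
Difference of DRF ZT20 minus NRF ZT8 (horizontal axis, log2(CPM + 1)) for each tested member of 30 gene lists (vertical axis), with genes past the test coloured, blue where higher and orange where lower, and a black bar at each list's median. The core clock row reaches from -3.75 to 2.40 around a median of -0.88, while oxidative phosphorylation stays between -0.27 and 0.31.

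Markers of other cells were counted in the same way. Of 10 macrophage markers 4 were higher and 0 lower (C1qa, C1qb, C1qc and Cd14), against 5.03% and 6.7% of all genes. Without DRF ZT20 replicate 1, 0 were called (limma), against 3.9% of all genes. The median was 0.82 with all libraries and 0.81 without that one. The 10 summed to 142 to 323 CPM in DRF ZT20 and 62.1 to 178 in NRF ZT8, and none was at 0. C1qa stood at 27.9, 17.6, 21.1 and 45.2 CPM against 8.81, 7.12, 17.3 and 15.1 (1.14 ± 0.32, adjusted p = 0.018), groups that nearly touch. The 4 calls were also each lost without DRF ZT20 replicate 4 or NRF ZT8 replicate 2 (adjusted p up to 0.15), those of C1qa and Cd14 without NRF ZT8 replicate 1 and that of Cd14 without NRF ZT8 replicate 4. The 9 adipocyte markers tested summed to 254 to 843 CPM against 292 to 716, and the 10 endothelial markers to 376 to 707 against 329 to 604, with 0 called in either list by limma or with voom weights and 0 and 1 at an unadjusted p under 0.05. The 5 red blood cell markers summed to 390 to 660 CPM against 262 to 534 and the 6 Schwann cell markers to 95.6 to 581 against 167 to 820, with 0 called by either fit and 0 at that p. Of 7 smooth muscle and pericyte markers 2 were lower, against 6.7% of all genes. They were Cspg4 (-0.67 ± 0.17, adjusted p = 0.0081) and Rgs5 (-0.55 ± 0.15, 0.018). Cspg4 overlapped, at 9.15 to 16.5 CPM against 15.0 to 22.8. Rgs5 was lost without DRF ZT20 replicate 1 (0.094) or NRF ZT8 replicate 2 (0.053). The rest did not pass, with Acta2 at 0.45 (adjusted p = 0.14), Cnn1 at -0.27, Myh11 at -0.05, Tagln at 0.05 and Pdgfrb at 0.02. The 10 slow-fibre genes had a median of -0.55 (-1.41 without DRF ZT20 replicate 1) and the 13 fast-fibre genes one of 0.36 (0.49 without it), with 0 called by either fit and 0 and 4 at an unadjusted p under 0.05. Their part in the differences above was not tested.

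In the lists not yet named, 1 gene each was called, beside 11.7% called over all genes. Abhd5, the activator of the fat lipase ATGL, was lower (-0.22, adjusted p = 0.015), 1 of 14 lipid droplet genes, and was lost without DRF ZT20 replicate 2 (0.055). The splicing factor Srsf7 was lower (-0.26, 0.026), 1 of 7 cold-inducible genes, and was lost without DRF ZT20 replicate 3 or NRF ZT8 replicate 2 or 4 (0.053 to 0.075). The amino acid transporter chain Slc3a2, with decimal counts, was higher (0.32, 0.0089), 1 of 16 amino acid response genes, and was lost without DRF ZT20 replicate 1 (0.061) or NRF ZT8 replicate 3 (0.055). The fibroblast receptor Pdgfra was higher (0.63, 0.017), 1 of 19 matrix genes, and was lost without NRF ZT8 replicate 2 (0.074). The interferon-induced GTPase Gbp3 was lower (-0.94, 0.038), 1 of 16, and was lost without DRF ZT20 replicate 1, 2 or 3 or NRF ZT8 replicate 2, 3 or 4 (0.053 to 0.15). Scaling by total count, with its median shift of -0.13 over all genes, gave 4 higher and 13 lower core clock genes, 2 and 2 FoxO and atrophy genes, and 2 and 0 macrophage markers. It gave 1 and 1 PPAR targets, 2 and 3 glucose genes, 1 and 3 glycogen genes, 2 and 1 satellite cell and myogenic genes, 0 and 1 genes of fatty acid synthesis, and 0 called in the endoplasmic reticulum stress, amino acid response and matrix lists. By that scaling 5 insulin and growth signalling, 5 cholesterol synthesis, 5 branched-chain amino acid and 4 ribosome assembly genes were lower and 0 higher.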

How the data were processed

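Muscle mRNA was selected on oligo(dT) beads, copied from random hexamers and read as paired ends, per the labels' protocols. No strand-marking step is described there, so overlapping antisense genes may share reads. Tools listed in the submitters' processing notes are RSEM, Bowtie2 and HISAT2, and the builds are GRCm38.p6 and mm10. For the tools, versions were not given in the sources used here. What the authors deposited as TPM is a score, K × log2(1 + 1000000 × c / N) / L, with c the estimated count, N a library size, L a gene length and K a factor that makes each column sum to 1000000. This form was inferred from the values and is named by no label. N and K were solved from the steps of 1 and 2 reads, and the inversion and the tests were tested on simulated data. Counts came out for 17442 of 19072 genes, within 0.0001 of a read for 90% of a gene's values (15331 genes whole, 2111 with decimals, which mark shared reads and are less certain). Of the others 1629 had fewer than 4 values above 0 and 1 could not be solved.

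CPM was c per 1000000 of N. Genes with a mean of at least 1 CPM over the 56 libraries were fitted with limma 3.58.1 (R 4.3.3, lmFit and eBayes with trend) on log2(CPM + 1), all 14 groups in 1 fit, with Benjamini-Hochberg adjustment across the 12024 genes. The groups, lists and alternatives were chosen with earlier results of these data known. Named genes were the 12 largest called differences in each direction (mean of at least 5 CPM, no overlap), all core clock genes, up to 4 called genes of each other list, 14 chosen fuel genes, the 8 most alike feeding state genes, and the 6 largest clock time and regimen contrasts. Recovered totals were 28172989 to 36183392 reads over all libraries, and N was 0.854 to 1.21 times the total. No 2 replicates were near-identical. The authors' tables of rhythm tests were not used here. Listed genes below the CPM filter (Slc7a11, Fgf21, Gdf15, Ucp1, Cidea, Calcr) were not tested. Values of 2 of the genes named by this rule are not reported here.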

Additional observations from a re-analysis of the deposited data

Results flagged for a closer look

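Among 184 groups of 4 libraries examined for the named genes, 12 held a library far from the other 3, where chance flags about 1 in 20 groups. In DRF ZT20 replicate 1, Clock was at 19.5 CPM (37.0 to 40.02 in the others), Rora at 47.4 (116 to 124), Ppp1r3a at 89.1 (312 to 347) and Insr at 56.2 (77.4 to 80.9), all lower than the others, and Cspg4 was at 16.5 (9.15 to 10.4), higher. In DRF ZT20 replicate 4, Ppp1r3c was at 1004 CPM (525 to 607), Trim63 at 698 (353 to 396) and Prima1 at 66.6 (39.8 to 42.2), all higher. In DRF ZT20 replicate 2, Tef was at 362 CPM (297 to 305), and in replicate 3 Lipe was at 51.8 (28.4 to 28.7). In NRF ZT8 replicate 3, Bhlhe40 was at 188 CPM (217 to 223) and Pnpla3 at 13.1 (6.90 to 7.77).

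For P2ry6, ZT20 minus ZT8 was 0.70 log2 units in the fasted groups and -0.35 in the fed groups. The difference between these was tested by the regimen contrast, DRF minus NRF averaged over both times, which is 0.5 of it and was 0.52 (adjusted p = 0.039 in limma).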

How the results depend on the processing

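Of 66 named genes past the test, 26 passed in every setting run, and 0 of the values recomputed changed direction past the test. The counts moved more. For DRF ZT20 against NRF ZT8 (605 higher, 806 lower) the 16 libraries at ZT8 and ZT20 alone gave 180 and 145, the 8 compared 74 and 28, total count scaling 223 and 2236, the log2 of the deposited values 331 higher and 1196 lower, array weights 518 lower, a removed length trend 507 lower, and leaving out 1 library 224 to 774 higher and 245 to 1158 lower. For the clock time contrast (987 and 1083) they were 383 and 338 in the 16 libraries, 292 and 2747 by total count, 620 higher by the deposited values, and 527 to 1153 higher and 563 to 1325 lower with 1 library left out. For the regimen contrast (1 and 0) the higher count was 0 in the 16 libraries, without a filter, at a mean of 5 CPM, with the length trend removed and with voom weights. It was 10 with 50 lower by total count, 12 with 3 lower by quantiles, with 10 lower by the deposited values, 1 lower with array weights, and 0 to 3 higher and 0 to 12 lower with 1 library left out. For the feeding state contrast (72 and 148) they were 19 and 26 in the 16 libraries, 33 higher by total count, 164 and 369 with array weights, 92 lower by quantiles, and 41 to 101 higher and 69 to 273 lower with 1 library left out. The causes were not tested. The share of higher calls was 42.9%, 9.07% by total count and 21.7% by the deposited values. Voom weights (607 and 847) and the subset of genes with whole counts were chosen after seeing the data.

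The same replicate numbers did not pair the libraries (correlations of their deviations -0.43, 0.31, 0.10 and -0.07), and a replicate block gave 563 higher and 747 lower and lost 2 of the 66 calls. Depth was similar in all libraries. Genes under a mean of 1 CPM were not tested, and 4 libraries a group, 1 of them apart from the rest, limit the small differences.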
